A study of Mus musculus with 10 samples.

Results

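Scx, Mkx, Tnmd, Col1a1, Col1a2, Col3a1, Col5a2, Lum, Dcn and Postn are genes of tendon and of loose connective tissue. They were followed through mouse embryonic limb buds labelled Dicer mutant or wild type. The 10 genes comprise regulators and markers of tendon, fibrillar collagens, small proteoglycans and periostin. Every probe set annotated to exactly 1 of these symbols was taken, which gave 17 of the 45101 probe sets on the array. Of these 17, 14 probe sets from 9 genes were bright enough to be tested, and Tnmd was the gene without a tested probe set.

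The series holds 10 Affymetrix arrays of biotin-labelled RNA from limb buds, 5 labelled Dicer mutant and 5 labelled wild type, numbered 1 to 5 in each group. The embryos came from a cross in which 1 parent carried a heterozygous floxed Dicer allele with the prxcre driver, a Cre transgene active in limb bud mesenchyme, and the other parent was homozygous for the floxed allele. Every embryo, wild type ones included, therefore inherited a floxed allele from the homozygous parent. Limb muscle, vessels, nerves and blood are known to arise from cells outside that mesenchyme. The embryonic age, the limb used, the number of embryos per array and whether wild type embryos carried the driver are not stated in the labels. No label says that the arrays are separate litters or animals, so p-values measure only the spread between these samples.

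Tendon, skin dermis and the sheaths around muscle are built mainly from fibrils of type I collagen, a trimer of the Col1a1 and Col1a2 chains, blended with type III collagen from Col3a1 and with type V collagen, which sets fibril width and includes the Col5a2 chain. Scleraxis, the transcription factor encoded by Scx, marks tendon progenitors of the limb bud, the homeobox factor of Mkx promotes their maturation, and tenomodulin from Tnmd appears on more mature tendon cells. Lumican (Lum) and decorin (Dcn) are small leucine-rich proteoglycans that coat collagen fibrils, and periostin (Postn) is a matricellular protein of fibrous tissue. Dicer cuts hairpins into mature microRNAs, and in mouse the miR-29 family is known to bind collagen mRNAs, among them those of Col1a1, Col1a2 and Col3a1.

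The mature miR-29 sequences are shown because they are Dicer products known for acting on the collagens described here. RefSeq (GRCm38.p6) holds 3 of them, with the seed, bases 2 to 8, in capitals, and all 3 share it. The mature miR-29a lies at chr6:31062673-31062694 (minus strand), miR-29b at chr6:31063025-31063047 (minus strand) and chr1:195037091-195037113 (plus strand), and miR-29c at chr1:195037600-195037621 (plus strand). MicroRNAs were not measured in these limb buds.
miR-29a-3p: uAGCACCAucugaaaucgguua
miR-29b-3p: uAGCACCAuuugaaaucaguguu
miR-29c-3p: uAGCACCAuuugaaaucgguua

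The array signals are linear intensities on a common scale, with array medians between 145.9 and 152.8. The RNA had the markers of limb bud mesenchyme: 8 of 8 fixed markers, such as Prrx1 and Twist1, passed the brightness filter, with summed signals of 8351 to 9450 in Dicer mutant arrays and 8363 to 9929 in wild type arrays. Tbx4, a hindlimb gene, had 298, 214, 320, 208 and 220 in Dicer mutant arrays 1 to 5, against 192, 273, 205, 137 and 160 in wild type arrays 1 to 5. Its log2 fold change without number 2 was 0.58 (limma adjusted p = 0.156, and 0.0070 with the replicate block), beside -0.21 for the forelimb gene Tbx5 (0.649 and 0.152) and 0.0020 for the hindlimb gene Pitx1. Lhx9, a LIM-homeobox gene of the list, had -0.13 (adjusted p = 0.50). The part of limb type in the values below was not tested. Dicer1 was lower in the mutant array of numbers 1, 3, 4 and 5 but not of number 2. Probe set 1427941_at had 226, 360, 221, 215 and 205 in Dicer mutant arrays 1 to 5, against 425, 233, 372, 390 and 706 in wild type arrays 1 to 5. The targeted gene thus went against both labels in number 2, and the fits below were made on the 10 arrays as labelled and on the 8 arrays without number 2. Arrays numbered 1 to 3 also stood apart from those numbered 4 and 5 along the first principal component (37.7% of the variance), and the labels do not say what a number marks. In limb bud RNA, fewer cells of a type and less RNA per cell cannot be told apart.

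No gene of the group was called as different in Dicer mutant limb buds without a block for the array number. Limma called 0 of the 9 measured genes at a Benjamini-Hochberg adjusted p below 0.05 in the 10 arrays, where 0% of 22515 tested probe sets were called (631 had an unadjusted p below 0.05). The 9 genes had a median log2 fold change of -0.14, Dicer mutant minus wild type, with 7 below 0 and 2 above. All 11601 measured genes had a median of -0.026, with 61.8% below 0. Without number 2 the median was -0.23, with 8 genes below 0 and 1 above, beside -0.013 for all genes, of which 54.4% were below 0. Limma again called 0 of the 9, where it called 378 probe sets or 1.68% of all tested. An unadjusted p below 0.05 was found for 2 of the 9 genes, Mkx and Col3a1, and for 14.4% of all genes. With the replicate block, limma gave an unadjusted p below 0.05 for 6 of the 9 in the 8 arrays, beside 23.6% of all genes. In the 10 arrays the block gave 2 of the 9, Col1a1 and Col1a2, beside 3.84% of all genes.

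The numbers did not behave alike. The median difference over the 9 genes, each mutant array against its same-numbered partner, was -0.080 in number 1, 0.099 in number 2, -0.35 in number 3, -0.13 in number 4 and -0.30 in number 5 on the log2 scale. Below 0 were 5, 2, 8, 6 and 6 of the 9 genes in numbers 1 to 5. The medians over all genes lay between -0.054 and -0.0079. Number 2, the pair whose Dicer1 signals went against the labels, was the only number with a positive median for these genes.

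**Figure D1:**
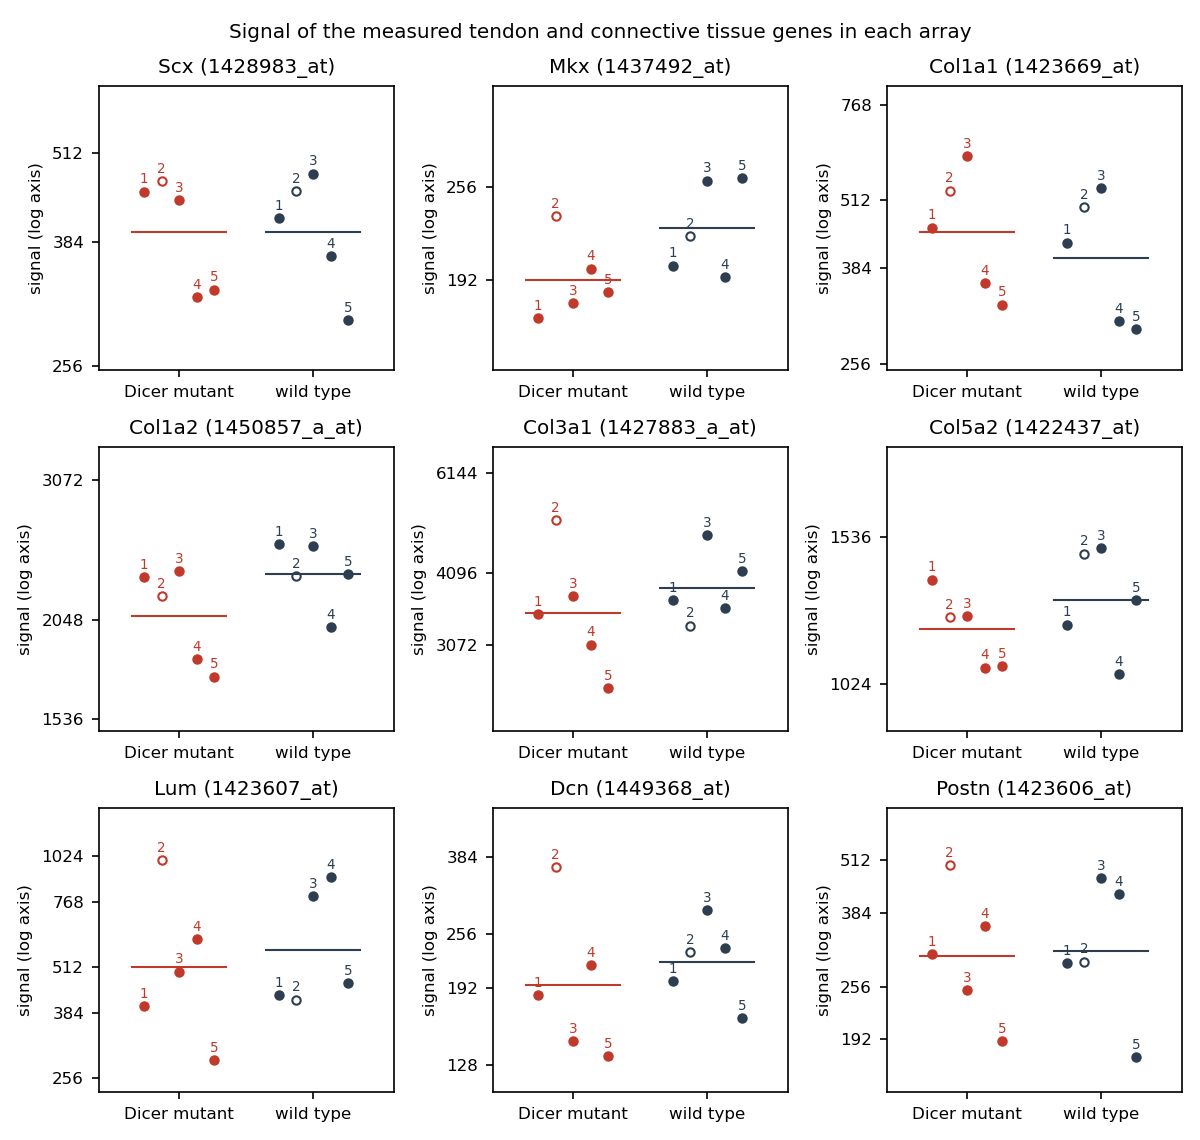
Signal (log axis) of the 9 measured genes in each of the 10 arrays, with the Dicer mutant arrays on the left and the wild type arrays on the right of each panel. Points carry the array number, open points are number 2, and lines are geometric means of the 5 arrays. The groups overlap in every panel. Mutant 2 and wild type 3 are among the 3 highest arrays for Lum, Dcn, Postn and Col3a1, and also for Scx, Mkx and Col1a1.

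Scx, the tendon progenitor regulator, had nearly equal means in both groups. Its probe set 1428983_at had 452, 468, 439, 320 and 328 in Dicer mutant arrays 1 to 5, against 414, 453, 479, 366 and 297 in wild type arrays 1 to 5. The groups overlapped completely, and the low arrays of both groups were those numbered 4 and 5. Its mean was 402 ± 71.6 in mutant and 402 ± 72.5 in wild type arrays (SD, n = 5 each). Without number 2 the log2 fold change was -0.012 (3.3e-06 in the 10 arrays), with a 95% confidence interval of -0.39 to 0.37 from limma. The other Scx probe set, 1456291_x_at, which may also bind related transcripts, gave 0.067 (interval -0.23 to 0.36). Differences of any size inside these intervals are compatible with these arrays.

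Mkx, the homeobox gene of tendon maturation, had 171, 234, 179, 199 and 185 in Dicer mutant arrays 1 to 5. It had 201, 220, 261, 194 and 263 in wild type arrays 1 to 5. Wild type 3 and 5 were the highest arrays and mutant 1 and 3 the lowest, and the groups overlapped. The log2 fold change was -0.23 (SE 0.11, limma adjusted p = 1.00) in the 10 arrays and -0.31 (SE 0.11, adjusted p = 0.270) in the 8, so Mkx was not called. The difference was below 0 in numbers 1, 3 and 5, at -0.23, -0.55 and -0.51, and close to 0 in numbers 2 and 4, at 0.088 and 0.035.

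Tnmd, the marker of mature tendon cells, was dim and flat. Its only probe set, 1417979_at, had 127 to 146 in Dicer mutant arrays and 134 to 150 in wild type arrays, all under the filter cut of 151. Its SD over the 10 arrays was 0.073 on the log2 scale, and 6.73% of tested probe sets had a smaller one. Without detection calls it is unknown whether this signal lies above background.

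The chains of type I collagen differed little between the groups, and on opposite sides of 0. Col1a1 at 1423669_at had 456, 534, 617, 361 and 329 in Dicer mutant arrays 1 to 5, against 428, 498, 539, 307 and 297 in wild type arrays 1 to 5. The mutant array was the higher one in 5 of 5 numbers, by 0.091 to 0.24 on the log2 scale, yet the groups overlapped. They overlapped within numbers 1 to 3 as well, and arrays 4 and 5 of both groups were low. Col1a2 at 1450857_a_at had 2320, 2193, 2361, 1830 and 1739 in Dicer mutant arrays 1 to 5, and 2551, 2325, 2537, 2006 and 2338 in wild type arrays 1 to 5. Here the mutant array was the lower one in 5 of 5 numbers, and wild type 5 stood farthest from its mutant partner (-0.43). Such a common sign in all 5 numbers was found for 3 of the 14 tested member probe sets (Col1a1 1423669_at and both of Col1a2) and for 5.84% of all tested.

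Neither chain passed the test in any comparison. In the 10 arrays Col1a1 had a log2 fold change of 0.15 (SE 0.21) and Col1a2 one of -0.18 (SE 0.10), both with a limma adjusted p of 1.00. In the 8 arrays Col1a1 had 0.17 (SE 0.24, adjusted p = 0.891) and Col1a2 -0.20 (SE 0.12, adjusted p = 0.602). The other Col1a1 probe set, 1455494_at, gave 0.13, and was above 0 in 3 of 5 numbers. The other bright Col1a2 probe set, 1423110_at, gave -0.065. Another Col1a2 probe set, 1446326_at, lay below the filter at 61 to 121 in mutant and 71 to 156 in wild type arrays. With the replicate block the 10 arrays gave Col1a1 1423669_at an SE of 0.060 and Col1a2 1450857_a_at one of 0.066. Limma gave them unadjusted p-values of 0.036 and 0.029, and an adjusted p of 0.899 for both. For 1455494_at and 1423110_at the unadjusted p was 0.338 and 0.322. In the 8 arrays with the block the adjusted p was 0.162 for Col1a1 1423669_at and 0.139 for Col1a2 1450857_a_at. The log2 ratio of Col1a1 (1423669_at) to Col1a2 (1450857_a_at) within an array was 0.33 higher in mutant arrays (-2.21 ± 0.21 in mutant, -2.54 ± 0.32 in wild type, SD, n = 5 each). An exact two-sided permutation test over the 10 arrays gave p = 0.0873 for this ratio, which was chosen after its values were seen, and 0.148 after Benjamini-Hochberg adjustment over the 4 ratios that 2 probe sets of each chain allow. It was the highest of the 4, and the others differed by 0.26, 0.21 and 0.14 (exact p = 0.0556, 0.111 and 0.222). Mutant arrays were higher in 5 of 5 numbers for the first ratio and in 4, 5 and 3 of 5 for the others. The exact test takes no account of the numbers. Without number 2 the first ratio differed by 0.37 (exact p = 0.114). Osteoblasts also make type I collagen. The bone markers on the array (5 genes) had summed signals of 733 to 928 in mutant and 810 to 973 in wild type arrays, and their part in these values was not tested.

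Scx and some type I collagen probe sets shared another division, that between array numbers. Col1a1 at 1423669_at had 297 to 361 in the 4 arrays numbered 4 and 5, against 428 to 617 in the 6 arrays numbered 1 to 3. Scx had 297 to 366 in arrays 4 and 5, against 414 to 479 in arrays 1 to 3. Of the 14 tested member probe sets, 4 were lower in all arrays numbered 4 and 5 than in all arrays numbered 1 to 3: both of Scx, Col1a1 1423669_at and Col1a2 1423110_at. The share was 11.7% over all tested probe sets, and 20.0% lay wholly on one side or the other. No tested member probe set was wholly higher in arrays 4 and 5, although the dim Col1a2 probe set 1446326_at, under the filter, was (97.2 to 156 in arrays 4 and 5, against 61.4 to 83.0 in arrays 1 to 3). Col1a2 1450857_a_at overlapped, at 1739 to 2338 in arrays 4 and 5 and 2193 to 2551 in arrays 1 to 3. Col1a1 1455494_at overlapped too, at 274 to 353 and 339 to 388. Arrays 4 and 5 minus arrays 1 to 3 gave -0.66 at Col1a1 1423669_at and -0.18 at 1455494_at on the log2 scale. The mutant to wild type differences there were 0.15 and 0.082 in the 10 arrays.

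The other fibrillar collagens were Col3a1 and Col5a2. Col3a1 at 1427883_a_at had 3472, 5069, 3734, 3070 and 2575 in Dicer mutant arrays 1 to 5, against 3671, 3316, 4773, 3557 and 4135 in wild type arrays 1 to 5. Mutant 2 was the highest array of all and mutant 5 the lowest. The log2 fold change was -0.14 (SE 0.16, limma adjusted p = 1.00) in the 10 arrays and -0.33 (SE 0.13, adjusted p = 0.303) in the 8. The second Col3a1 probe set, 1427884_at, gave -0.16 in the 8 arrays. Col5a2 had 1364, 1230, 1234, 1070 and 1075 in Dicer mutant arrays 1 to 5 at 1422437_at, and 1205, 1465, 1487, 1050 and 1289 in wild type arrays 1 to 5. These values overlapped, and the fold change of -0.081 (interval -0.36 to 0.19) in the 8 arrays and of -0.12 (SE 0.11) in the 10 stood beside 0.019 and -0.054 at its other probe set, 1450625_at.

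The widest variation of the group was in the proteoglycans and periostin. Lum had 401, 995, 497, 608 and 287 in Dicer mutant arrays 1 to 5. It had 430, 418, 794, 894 and 462 in wild type arrays 1 to 5. The highest array, mutant 2, was 3.47-fold above the lowest, mutant 5. Both are labelled Dicer mutant, and in mutant 2 Dicer1 goes against that label. The SD of Lum over the 10 arrays, 0.57 on the log2 scale, exceeded that of 99.3% of tested probe sets. Postn (0.51) exceeded 98.9% and Dcn (0.44) 97.7%, whereas Col1a2 at 1450857_a_at (0.19) exceeded 66.0%.

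Within numbers, Lum was lower in the mutant array by 0.10, 0.68, 0.56 and 0.69 on the log2 scale in numbers 1, 3, 4 and 5, and higher by 1.25 in number 2. In the 10 arrays these opposite differences left a log2 fold change of -0.15 (SE 0.32, limma adjusted p = 1.00). Without number 2 it was -0.50 (SE 0.29, adjusted p = 0.565), since numbers differed more from each other than mutant from wild type. Blocking the 8 arrays by replicate number gave the same fold change an SE of 0.11 and a limma adjusted p of 0.0463, and Lum was then the 1 called gene of the 9, where 5.41% of all tested probe sets were called. That call was lost without number 1 (adjusted p = 0.0569), number 3 (0.206) or number 4 (0.197) and held without number 5 (0.0394), with fold changes of -0.64 to -0.44. In the 10 arrays the block called 0 of the 9 genes and 0% of all probe sets.

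Dcn at 1449368_at had 185, 363, 145, 217 and 134 in Dicer mutant arrays 1 to 5, against 199, 232, 290, 237 and 164 in wild type arrays 1 to 5. Mutant 2 was again the highest and mutant 5 the lowest. Postn had 306, 498, 251, 357 and 190 in Dicer mutant arrays 1 to 5, against 291, 294, 464, 425 and 174 in wild type arrays 1 to 5, and here wild type 5 was the lowest. Neither was called: in the 8 arrays limma gave Dcn -0.38 (SE 0.20, adjusted p = 0.485) and Postn -0.23 (SE 0.31, adjusted p = 0.876). In the 10 arrays it gave -0.18 (SE 0.25) and -0.04 (SE 0.29), both with an adjusted p of 1.00. Number 3 carried the widest gap for both, -1.0 for Dcn and -0.89 for Postn. Dcn was below 0 in 4 of these 4 numbers and Postn in 2. A second Dcn probe set, 1441506_at, lay under the filter at 99 to 111 in mutant and 96 to 115 in wild type arrays and did not follow the first.

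Counted over the 14 tested member probe sets, which are not independent because some share a gene, 5 were lower in the mutant array of all 4 of numbers 1, 3, 4 and 5: both of Col1a2, Col3a1 1427883_a_at, Lum and Dcn. The share over all tested probe sets was 16.8%. Of these 5, Col3a1, Lum and Dcn were higher in the mutant array of number 2, a combination found in 12.3% of all tested probe sets. In no member probe set were the 4 mutant arrays and the 4 wild type arrays free of overlap, where 9.09% of all tested probe sets did.

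**Figure D2:**
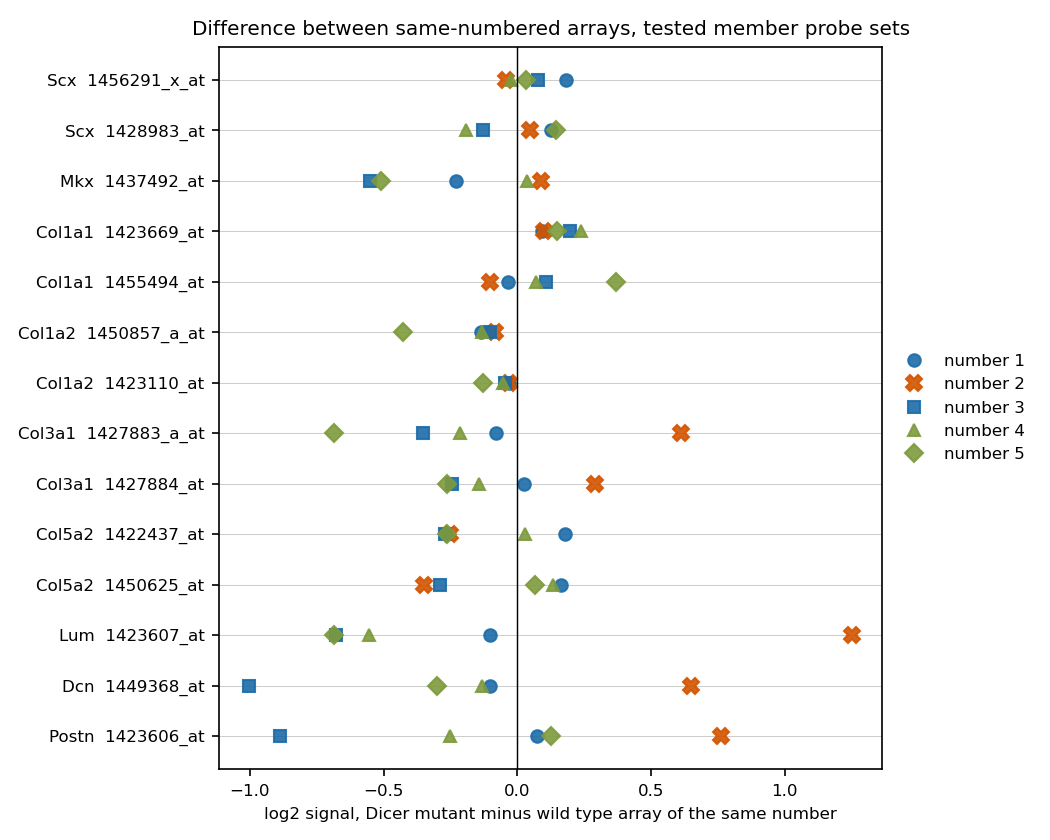
Log2 difference between the Dicer mutant array and its same-numbered wild type partner (mutant minus wild type), for the 14 tested probe sets of the group, with 1 symbol per number. Number 2 stands at 1.25 for Lum, 0.76 for Postn, 0.65 for Dcn and 0.61 for Col3a1, the highest of the 5 numbers for each, while the type I collagen chain Col1a2 stays between -0.43 and -0.08 at 1450857_a_at.

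**Figure D3:**
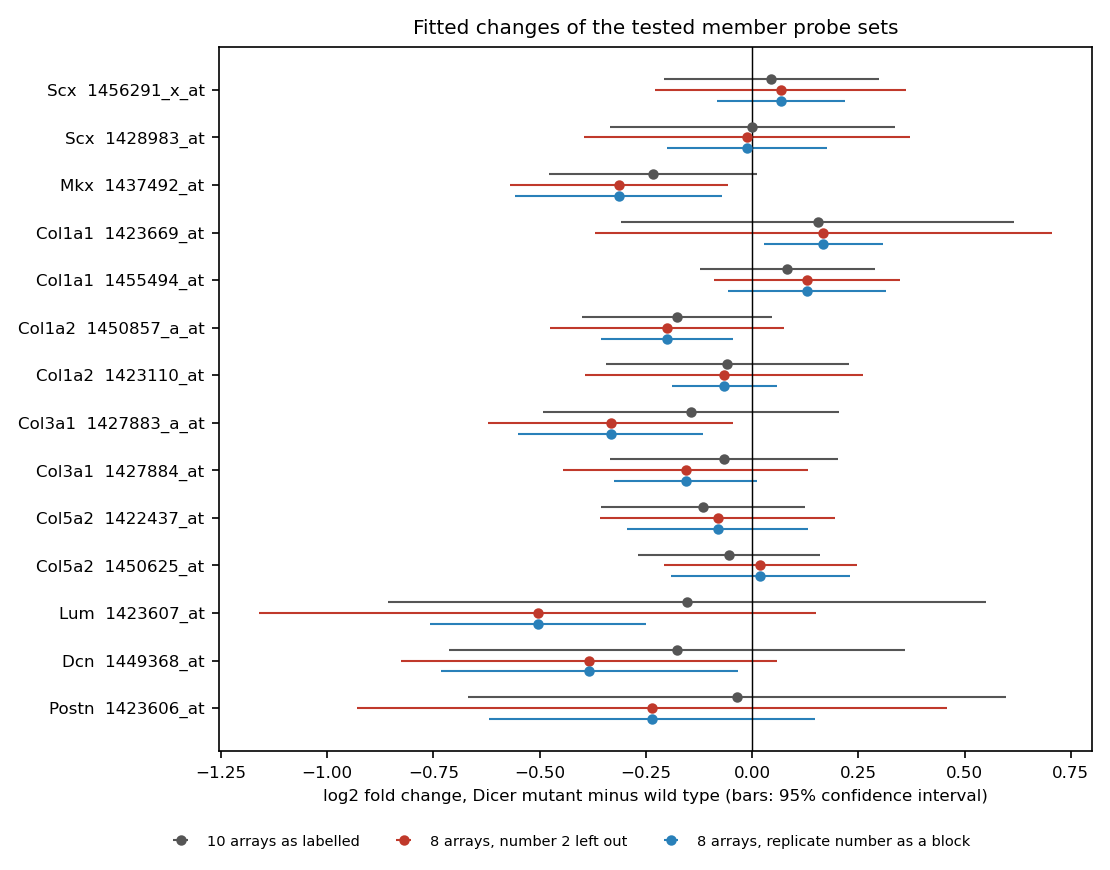
Fitted log2 fold changes (Dicer mutant minus wild type) of the 14 tested probe sets with 95% confidence intervals from limma, for the 10 arrays as labelled, the 8 arrays without number 2 and the same 8 blocked by number. In both fits without the block the 4 widest intervals are those of Lum, Dcn, Postn and Col1a1 1423669_at, and in the 8 arrays with it those of Postn, Dcn, Lum and Mkx.

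Array by array, Lum, Dcn, Postn and Col3a1 were all highest in mutant 2. Next came wild type 3 for Dcn, Postn and Col3a1 and wild type 4 for Lum. Scx was highest in wild type 3 and mutant 2 and Col1a1 in mutant 3 and wild type 3. As a measure of likeness, the root mean square difference between 2 genes' log2 profiles over the 10 arrays, each centred on its own mean, was 0.22 for Dcn and Postn, 0.30 for Lum and Postn and 0.31 for Dcn and Lum. It was 0.12 for Col1a2 and Col5a2 and 0.18 for Scx and Col1a1, and 0.59 for Col1a1 and Lum, the least alike of the 36 pairs. Small differences between flat profiles are also counted as alike by this measure. The 9 members lay 0.14 (Col3a1) to 0.38 (Lum) from their own mean profile, farther than the 5 outside genes named next. Outside the group, the 5 genes nearest to the mean profile of the 9 members were Mcu (0.065), the zinc finger gene Zkscan6 (0.078), the actin-binding tropomyosin gene Tpm1 (0.091), the DNA repair gene Mpg (0.092) and Arhgef3 (0.092), and none of the 5 was called in the 10 or the 8 arrays.

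Summed signals of several marker lists, among them muscle, cartilage and red cells, varied with the same arrays. The 12 skeletal muscle genes, had summed signals of 5552, 9169, 4505, 5210 and 2649 in Dicer mutant arrays 1 to 5, against 4606, 6812, 7664, 4363 and 2582 in wild type arrays 1 to 5. Mutant 2 and wild type 3 were the 2 highest arrays and both arrays numbered 5 the lowest, much as for Postn. Of these 12 genes 9 passed the filter, and Pax7, Myf5 and Tnnt3 did not. A sum weighs bright genes most, and single genes of the list differed. Myod1 had 247 in mutant 2, below its 277 in mutant 1 and 295 in wild type 1. Chrna1 was highest in wild type 3 (187) and mutant 2 (184). The 14 cartilage genes were also highest in mutant 2 and wild type 3 (8728 and 8711) and lowest in mutant 5 (5575), and red blood cell genes were lowest in mutant 2 (20913) and highest in mutant 5 (36041). Nerve and Schwann cell genes were also highest in mutant 2 (1267) and lowest in mutant 5 (909). Bone and endothelium genes were lowest in mutant 2 (733 and 1787). Without number 2 the summed muscle signal was 2649 to 5552 in mutant and 2582 to 7664 in wild type arrays. The part of muscle and cartilage content in the values of Lum, Dcn, Postn, Col3a1 and the other measured members was not tested.

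Some markers of white blood cells and surface ectoderm were called in the 8 arrays with the replicate block only, where 5.41% of all tested probe sets were called. With the replicate block the white blood cell genes Ctss, a protease, and Tyrobp, a signalling adaptor, were called as higher in mutant arrays (0.43 and 0.49, limma adjusted p = 0.0197 and 0.0164). The keratin gene Krt14 of surface ectoderm was called as lower (-0.39, adjusted p = 0.0435). It went against most of its list, where 6 of 8 measured genes were above 0 and 2 below, with a median of 0.063. The keratin gene Krt18 had 0.13 and was not called with the block (adjusted p = 0.346). Without the block none of Ctss, Tyrobp and Krt14 was called (adjusted p = 0.0773, 0.223 and 0.595). In the same 8 arrays white blood cell genes (10 on the array) had summed signals of 2023 to 2363 in mutant and 1884 to 2112 in wild type arrays, and ectoderm genes (8) had 3113 to 3423 in mutant and 3110 to 3495 in wild type arrays. No gene of the muscle, bone, endothelium, nerve or red cell lists was called with or without the block. Their smallest p-values belonged to Chrna1 (-0.09) and Myod1 (-0.08) of muscle, Sp7 (0.09) and Ibsp (0.03) of bone, Pecam1 (-0.08) and Tek (-0.09) of endothelium, Erbb3 (-0.33) and Sox10 (-0.01) of nerve, and Hbb-y (0.07) and Hba-x (0.08) of red cells, as log2 fold changes in the 8 arrays. The part of these tissues in the values of the connective tissue genes was not tested.

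**Figure D4:**
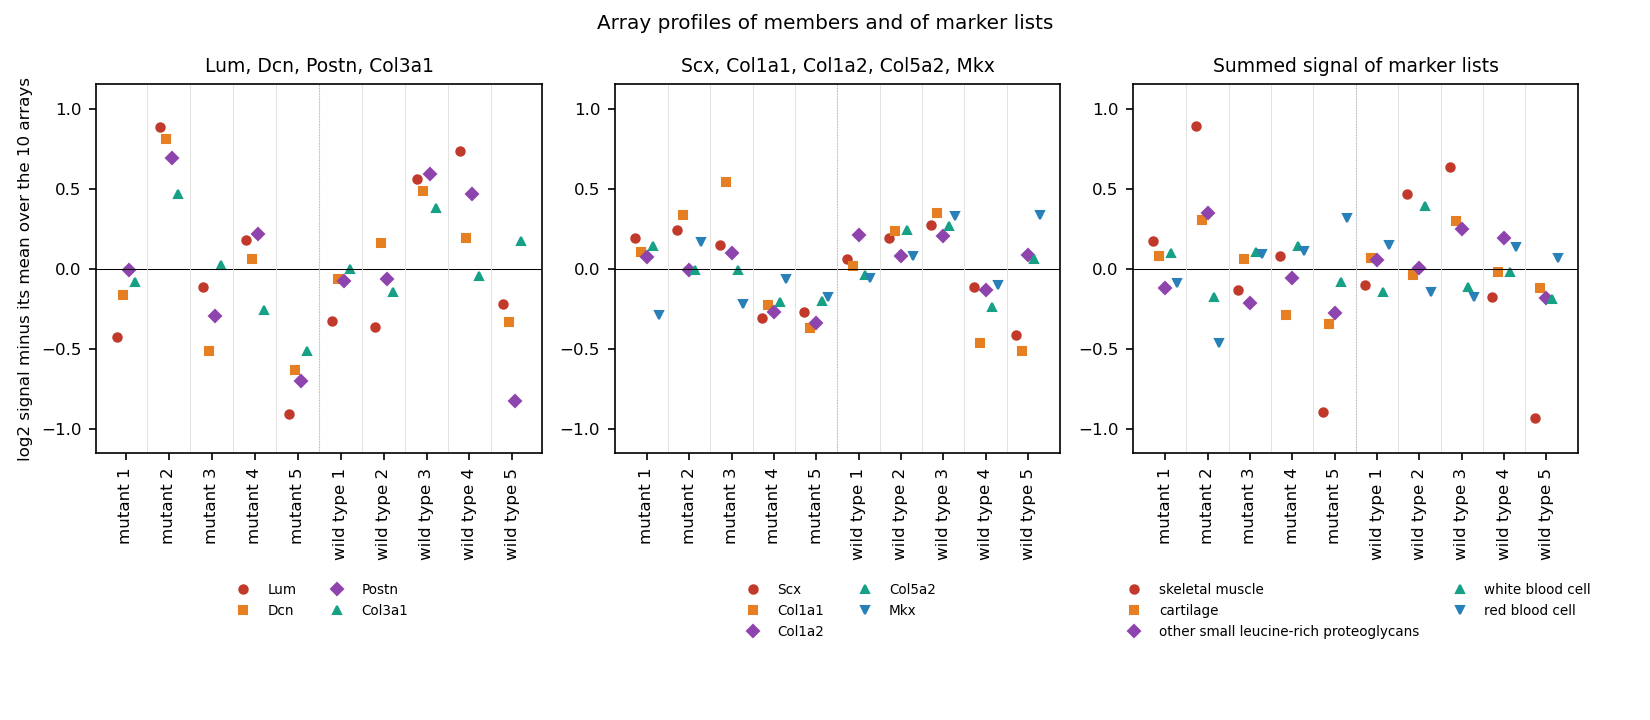
Log2 signal in each of the 10 arrays minus the mean over the 10, with Dicer mutant arrays left of the dotted line and wild type arrays right of it. The left panel holds Lum, Dcn, Postn and Col3a1, the middle panel Scx, Col1a1, Col1a2, Col5a2 and Mkx, and the right panel the summed signal of 5 marker lists. Mutant 2 and wild type 3 are high in the left panel, for Scx, Mkx and Col1a1 in the middle panel, and in the muscle and cartilage lists. Arrays 4 and 5 are low for Scx and Col1a1.

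Other genes of tendon and connective tissue gave a similar picture. Across 7 lists of tendon differentiation, tendon induction, connective tissue regulation, further collagens, collagen processing, further leucine-rich proteoglycans and further matrix, 53 of 76 genes were measured. List values below are from the 8 arrays unless stated, and with the 10 arrays every adjusted p was 1.00. Limma called 0 of the 53 in the 10 arrays, where 2 had an unadjusted p below 0.05, and 0 in the 8 arrays, where 5 (9.43%) had an unadjusted p below 0.05, beside 14.4% of all genes. Their median in the 8 arrays was -0.095, with 34 below 0 and 19 above, where 54.4% of all genes were below 0. With the replicate block 2 were called as higher and 2 as lower in mutant arrays (7.55% of the 53, beside 5.41% of all tested probe sets).

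Among leucine-rich proteoglycans, Kera, the gene of keratocan and a close relative of Lum, had 349, 662, 220, 411 and 198 in Dicer mutant arrays 1 to 5, against 423, 396, 597, 572 and 277 in wild type arrays 1 to 5. Like Lum it was highest in mutant 2 and lowest in mutant 5. In the fit on 8 arrays its log2 fold change was -0.67 (SE 0.30, limma adjusted p = 0.390), and Bgn, the gene of biglycan, had -0.11. All 3 measured members of this list were below 0, and Ogn, Omd, Prelp, Aspn and Epyc lay under the filter. Tenascin C, encoded by Tnc and found at tendon attachments, had -0.33 (adjusted p = 0.751). The elastic fibre gene Fbln5 had -0.61 (SE 0.15, adjusted p = 0.0945). Its signals were 109 to 130 in the 4 mutant and 133 to 235 in the 4 wild type arrays. These do not overlap, as was found for 9.09% of all tested probe sets. The 4 mutant signals and that of wild type 5 (133) lay under the filter cut of 151, so Fbln5 passed only through its higher arrays. With number 2, at 291 in the mutant and 151 in the wild type array, its fold change was -0.30 (SE 0.25, adjusted p = 1.00). Tnxb, the gene of tenascin X, had -0.21.

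Signals that draw tendon progenitors were mostly flat, with 8 of 12 genes above 0 and 4 below in the 8 arrays. Tgfb2, a TGF-beta ligand needed for tendon formation, had -0.40 (SE 0.14, limma adjusted p = 0.240), and the receptor gene Tgfbr1 had 0.14 (adjusted p = 0.473). Of connective tissue regulators, Ebf1 had -0.52 (SE 0.16, adjusted p = 0.178). Pdgfra, the PDGF receptor of mesenchymal fibroblasts, had 0.20, with an adjusted p of 0.271 without the block and 0.0480 with it.

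Collagen processing genes were below 0 in 11 of 14 cases in the 8 arrays, with a median of -0.14, where 54.4% of all genes were below 0. The proline hydroxylases P3h1 and P4ha2 had -0.16 and -0.48 (limma adjusted p = 0.453 and 0.498), and for P4ha2 the array wild type 5, at 749, stood far above the others, which lay between 270 and 363. With the block, Loxl1, a cross-linking oxidase, was called as lower (-0.31, adjusted p = 0.0364) and Pcolce, an enhancer of procollagen cleavage, as higher (0.29, adjusted p = 0.0433). The microfibrillar collagen gene Col6a2 was also called as lower with the block (-0.33, adjusted p = 0.0268), and Col5a1, the partner chain of Col5a2, was not (-0.24, adjusted p = 0.0811). Without the block none of these 4 was called (adjusted p = 0.507, 0.499, 0.450 and 0.610). The cartilage gene Col11a1, a fibrillar collagen chain, was the only gene of the 16 lists called in the 8 arrays without the block. It had 498, 993, 453, 535 and 490 in Dicer mutant arrays 1 to 5, against 652, 511, 832, 813 and 674 in wild type arrays 1 to 5, and like Lum and Dcn was highest in mutant 2. Its log2 fold change was -0.58 (SE 0.10, limma adjusted p = 0.0314) in the 8 arrays and -0.27 (SE 0.21, adjusted p = 1.00) in the 10.

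Promoter windows were available for 4 of the 10 genes in RefSeq (GRCm38.p6), from 250 bases before to 50 after the annotated start. They are shown for the collagens Col1a2 and Col3a1 and for Postn, whose SDs over the 10 arrays were 0.19, 0.29 and 0.51, so that the letters can be read beside the values. Postn has 2 annotated starts, and 1 of its windows is printed. Capitals mark the CCAAT box (CCAAT), the TATA box (TATAAA) and the E-box (CANNTG), the class of site bound by basic helix-loop-helix factors such as scleraxis, each searched on both strands. In Col3a1 the TATA box and an E-box adjoin without overlapping.
Col1a2, chr6:4505368-4505667, plus strand: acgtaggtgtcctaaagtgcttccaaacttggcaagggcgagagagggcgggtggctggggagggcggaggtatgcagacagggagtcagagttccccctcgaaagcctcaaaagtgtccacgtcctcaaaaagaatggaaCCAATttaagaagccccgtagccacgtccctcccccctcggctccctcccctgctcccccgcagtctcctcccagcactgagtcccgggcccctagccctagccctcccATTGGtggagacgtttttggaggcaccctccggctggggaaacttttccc
Col3a1, chr1:45311288-45311587, plus strand: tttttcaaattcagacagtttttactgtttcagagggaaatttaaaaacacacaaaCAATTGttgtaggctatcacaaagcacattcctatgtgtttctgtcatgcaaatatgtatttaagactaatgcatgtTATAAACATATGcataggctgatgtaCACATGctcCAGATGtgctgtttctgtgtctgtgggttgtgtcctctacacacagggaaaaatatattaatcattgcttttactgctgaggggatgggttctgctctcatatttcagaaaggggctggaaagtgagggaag
Postn, chr3:54360857-54361156, plus strand: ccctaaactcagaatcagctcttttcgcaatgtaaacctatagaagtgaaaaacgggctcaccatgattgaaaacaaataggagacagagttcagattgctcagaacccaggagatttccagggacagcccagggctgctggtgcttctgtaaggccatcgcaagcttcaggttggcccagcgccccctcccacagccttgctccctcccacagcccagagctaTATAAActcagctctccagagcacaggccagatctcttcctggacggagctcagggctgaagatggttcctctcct

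The Col1a2 window held 2 CCAAT boxes, 1 on each strand, and no TATA box or E-box. The Col3a1 window held 1 TATA box and 4 E-boxes, and the printed Postn window 1 TATA box. The other Postn window, chr3:54359017-54359316 (plus strand), held 1 CCAAT box and neither of the other motifs, and the Tnmd window held none of the 3. Over all 32851 windows of this length, 37.4% held a CCAAT box, 13.6% a TATA box and 72.3% an E-box. A match describes the letters only.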

How the data were processed

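The authors' deposited table holds linear intensity values of 45101 probe sets in 10 arrays, 1 sample per array. The submitters' processing notes name GCOS 1.3, and no label records the summarization or the scaling target (not given in the sources used here). As deposited, 2% trimmed means of the arrays spanned 276 to 289, so no normalization was added. An offset or compressed summarization would understate changes of dim genes. Intensities below 1 were set to 1, log2 was taken, and 64 control probe sets and those with a mean log2 under the median of all probe sets (a signal of 151) were left out, leaving 22515. Each comparison was fitted by limma 3.58.1 under R 4.3.3 (lmFit, eBayes with an intensity trend, Benjamini-Hochberg adjustment at 0.05), which was tested on simulated data. A gene took the values of the brightest of its tested probe sets, those ending in x or s only where no other existed. Platform annotation gave symbols to probe sets (34945 with 1, 932 with several and 9160 with none, controls left out).

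The genes, the 16 further lists and the 8-array comparison were chosen with earlier results of these data known. All members are named, and of each list the genes called without the block (up to 4), or otherwise the 2 with the smallest p. List genes called with the block are named too, as are Tbx5 and Pitx1, chosen after their values were seen. No array repeated another, and 0 columns were unused. Deviations from group means correlated within numbers 1, 3, 4 and 5 in the 8 arrays (0.55, 0.55, 0.71 and 0.32). The highest correlations with other numbers were 0.54, 0.54, 0.52 and 0.52, the last above that of number 5 with itself. In the 10 arrays number 2 gave -0.18. Neither main fit, of the 10 or of the 8 arrays, had a block, since no label says what a number marks. The replicate block was run as an alternative in both. Alternatives were quantile normalization, offsets of 16 and 64, no filter or one at the 70th percentile, no trend, the replicate block, the mean of a gene's probe sets, single arrays left out, and numbers 1 and 3 or 4 and 5 alone.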

Additional observations from a re-analysis of the deposited data

How the results depend on the processing

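In the 10 arrays limma called 0 member genes under every alternative run. In the 8 arrays it called 0 in each but the replicate block, which called 1, Lum, and 1219 probe sets in all. Of all probe sets, 378 were called in the 8 arrays. Leaving out Dicer mutant 1, 3, 4 or 5 gave 136, 103, 97 and 109 calls, and leaving out wild type 1, 3, 4 or 5 gave 110, 93, 142 and 745. The calls were 811 with numbers 1 and 3 alone and 0 with numbers 4 and 5 alone. The median of the member genes ran from -0.21 to -0.034 in the 10 arrays and from -0.32 to -0.12 in the 8 when single arrays were left out. The values nearest 0 were those without Dicer mutant 5. Fold changes near 0 changed sign. Scx, at 3.3e-06 in the 10 arrays, was -5.3e-05 with an offset of 16, -0.00017 with 64 and -0.10 to 0.077 without single arrays. In the 8 arrays it was 0.0083 after quantile normalization, 0.028 as a mean of probe sets, 0.00037 with numbers 1 and 3 alone and -0.13 to 0.095 without single arrays. Without single arrays Lum (-0.39 to 0.055) and Postn (-0.25 to 0.13) turned in the 10 arrays, and Col1a1 (-0.0086 to 0.33) and Col5a2 (-0.16 to 0.0031) in the 8. The leave-one-number-out values of the blocked Lum fit were added after seeing the data. The causes were not tested. The number of arrays limits precision, and for Tnmd and Dcn 1441506_at the unknown distance from background does.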
